A study of Homo sapiens with 16 samples.

Results

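PDCD4 and genes of the eIF4F translation initiation complex and its control were described across U2OS cells in which the transcription factor RFX7 was depleted and p53 was switched on. The set held 9 genes taken by symbol from the authors' deposited tables: PDCD4, the helicase genes EIF4A1 and EIF4A2, the cap-binding gene EIF4E, the scaffold genes EIF4G1, EIF4G2 and EIF4G3, and the EIF4E inhibitor genes EIF4EBP1 and EIF4EBP2. All 9 were present in each of the 4 tables, which held 23396 genes between them. PDCD4 was chosen by its own fold changes in these data (those of the 4 comparisons below), so its values are given below as a description with no test. The other 8 genes were listed by name for their role and are called the eIF4F genes for short. EIF4EBP1 and EIF4EBP2 are inhibitors and not subunits of that complex, and EIF4G2 lacks the part that binds eIF4E.

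U2OS is an established human osteosarcoma line with functional p53. They received either a control siRNA, here siControl, or one that targets RFX7, here siRFX7, and then 10 µM Nutlin-3a or its solvent DMSO for 24 h. Nutlin-3a stabilises p53 by blocking its binding to MDM2. The 4 groups (siControl with DMSO, siControl with Nutlin-3a, siRFX7 with DMSO, siRFX7 with Nutlin-3a) had 4 poly(A) RNA-seq libraries each, 16 in all. The labels name no genetic change in any group, all groups went through siRNA transfection, and how many siRNA sequences were used is not given in the labels. The labels do not say whether the 4 libraries of a group came from separate cultures, so the errors below measure only the spread between these libraries, which may be technical. The files held each gene's mean and fold change per comparison and no value of a single library. Group means are therefore given in place of sample values, and overlap between groups could not be read.

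PDCD4 is an inhibitor of translation initiation. It binds the helicase eIF4A and keeps it from joining the scaffold eIF4G, which together with the cap-binding protein eIF4E forms eIF4F, the complex that recruits ribosomes to capped mRNA. The EIF4EBP proteins block the same complex at another point, by occupying the site on eIF4E that eIF4G uses. The kinase mTORC1 links both brakes: it phosphorylates EIF4EBP1 and EIF4EBP2, which releases eIF4E, and it activates S6 kinase (RPS6KB1), which marks PDCD4 for destruction by the BTRC ubiquitin ligase.

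The labels were checked on 3 genes. The direction of each table was set from their signs, so only the sizes of their changes bear on the labels. In the authors' deposited tables, RFX7 mRNA stood at 18.6% of control with siRFX7 under DMSO and at 19.4% under Nutlin-3a. The p53 targets CDKN1A and MDM2 had log2 fold changes with Nutlin-3a of 3.24 and 2.89 in siControl cells and of 2.98 and 2.76 in siRFX7 cells, per the authors' deposited tables. The summed base mean of a table, the mean normalised count over its 8 libraries summed over genes, ranged from 27946400 to 35311100. The 6 osteosarcoma and mesenchymal markers were in every table, with a summed implied level of 122160 to 157660 normalised counts per group. Nearly all of that sum came from VIM, COL1A1 and SPARC. COL1A2 was low, with base means of 11.04 to 13.23. RUNX2 (283 to 432) and ALPL (330 to 371) were not far above the epithelial gene EPCAM (184 to 214). Of 5 markers of other cell types, CD3E was in no table, PTPRC and PECAM1 had base means of 5.21 and 2.66 in the one table that held them, and the epithelial genes EPCAM and CDH1 were in all 4. The summed level of EPCAM and CDH1 moved with the siRNA, from 282 in siControl to 446 in siRFX7 cells under DMSO and from 263 to 435 under Nutlin-3a. In bulk RNA, more cells of a kind and more RNA per cell cannot be told apart. The part of this in the siRFX7 effects below was not tested.

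PDCD4 mRNA was higher after Nutlin-3a and lower with siRFX7, and its response to Nutlin-3a was smaller with siRFX7. PDCD4 (ENSG00000150593) lies on GRCh38 chr10:110871795-110900006, plus strand. In siControl cells its implied level, solved from the base mean and fold change of the authors' deposited table, went from 838 normalised counts with DMSO to 1661 with Nutlin-3a. In siRFX7 cells the corresponding levels were 366 and 478. The tables were normalised separately, so here and for every gene below levels were compared only within a table and changes between them. Read from the siRFX7 comparisons of the authors' deposited tables, the level was 752 in siControl against 433 in siRFX7 cells under DMSO, and 1405 against 534 under Nutlin-3a. With siControl DMSO set to 100%, PDCD4 stood at 198% in siControl cells with Nutlin-3a, at 57.6% in siRFX7 cells with DMSO and at 75.2% in siRFX7 cells with Nutlin-3a. The level with p53 active and RFX7 depleted was thus below that of untreated control cells.

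In the authors' deposited tables the log2 fold change of PDCD4 with Nutlin-3a was 0.99 ± 0.05 (SE, 4 libraries a group, as for all errors below) in siControl cells and 0.39 ± 0.08 in siRFX7 cells. The deposited tables give its log2 fold change with siRFX7 as −0.80 ± 0.07 under DMSO and −1.40 ± 0.06 under Nutlin-3a. The difference of the Nutlin-3a responses, siRFX7 minus siControl, was −0.60 ± 0.09 on the log2 scale, with a 95% interval of −0.79 to −0.42. These comparisons share groups by pairs (siControl with DMSO, for example, is the reference of 2 of them), so they are views of the same 4 group means and not separate evidence.

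**Figure D1:**
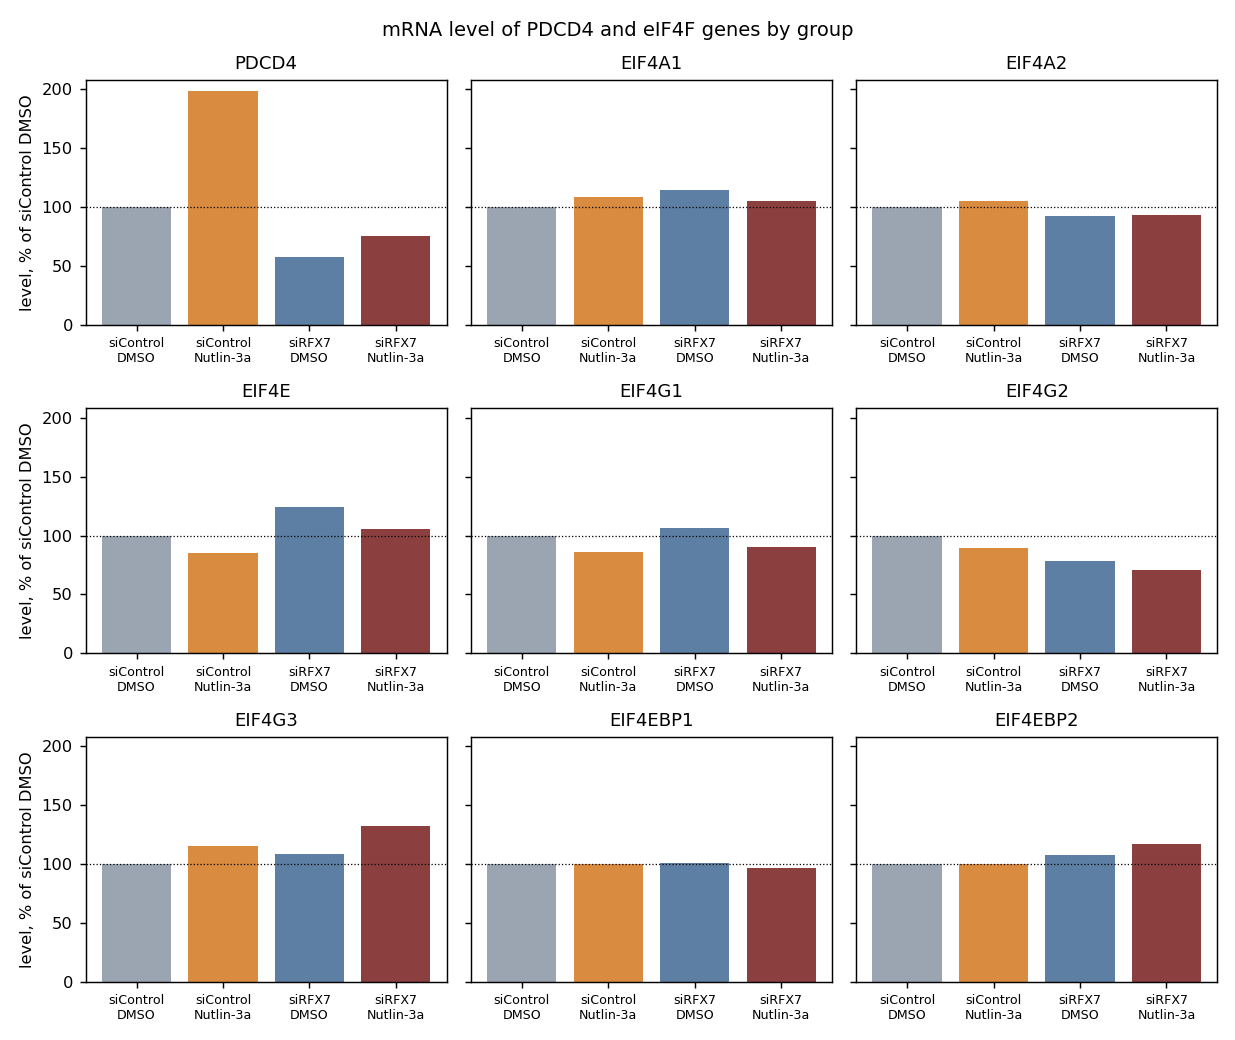
Implied mRNA level of each of the 9 genes in the 4 groups, as a percentage of siControl DMSO on an axis from 0; bars are group means from the deposited fold changes, with no error bar because the files used hold no value of a single library. PDCD4, chosen by its own fold changes, spans 57.6% to 198%, and the 8 eIF4F genes lie between 70.6% and 132%.

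The stretch just upstream of PDCD4 is shown because RFX factors bind a DNA element called the X-box. The 117 bases before the first annotated PDCD4 start, GRCh38.p14 chr10:110871678-110871794 on the plus strand, were read from the RefSeq promoter table.
PDCD4 upstream: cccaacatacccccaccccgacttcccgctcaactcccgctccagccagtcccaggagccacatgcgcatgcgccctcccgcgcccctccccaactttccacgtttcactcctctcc
The X-box core words GTTGCCA and GTTGCTA were searched on both strands in windows of 250 bases before and 50 after each RefSeq start. Of the 9 genes, 8 matched the table, with 12 windows, and none of the 12 held either word. Over 35116 promoters of the same length, 4.08% held GTTGCCA and 2.85% held GTTGCTA. A window without a word says only that these letters are not in it.

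PDCD4 has 2 neighbours on the opposite strand, and the strand setting of the counting is not given in the sources used here, so where exons of opposite strands overlap, as those of PDCD4 and BBIP1 do, their reads cannot be told apart from the files. PDCD4-AS1 (ENSG00000203497, chr10:110869868-110872233, minus strand) is an antisense transcript whose gene overlaps the first 439 bases of the PDCD4 gene in opposite orientation. The exons of the pair share no base, and none of the 117 bases shown lies in a PDCD4-AS1 exon. This gene and BBIP1 (below) were named after their values were seen. The implied level of PDCD4-AS1 in the authors' deposited tables was 75.8 with DMSO and 126 with Nutlin-3a in siControl cells, and 56.2 and 48.3 in siRFX7 cells. PDCD4-AS1 was normalised separately in the 2 arms, so these levels are not compared between them. In the authors' deposited tables (DESeq2 Wald test) it rose with Nutlin-3a in siControl cells, with a log2 fold change of 0.74 ± 0.15 (adjusted p = 8.18e-06). The value in siRFX7 cells was −0.22 ± 0.22 (adjusted p = 0.479) in the authors' deposited table.

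Depletion of RFX7 left PDCD4-AS1 at −0.02 ± 0.18 under DMSO (adjusted p = 0.935) and lowered it under Nutlin-3a, with a log2 fold change of −0.98 ± 0.19 (adjusted p = 1.38e-06), per the authors' deposited tables. Its responses to Nutlin-3a differed between siRFX7 and siControl cells by −0.96 ± 0.27, with a 95% interval of −1.48 to −0.43 and an adjusted p of 0.0375 (normal test of the difference of the deposited DESeq2 values, Benjamini-Hochberg over 21339 genes). The gene is low, with base means of 52.2 to 101, and that call was lost at an adjusted p threshold of 0.01. BBIP1, whose exons cover 1276 of the 3697 bases (34.5%) of the PDCD4 transcript ENST00000393104 from the opposite strand, had log2 fold changes of 0.06 ± 0.06 and 0.14 ± 0.08 with Nutlin-3a, per the authors' deposited tables, neither called. With siRFX7 it fell under DMSO, by 0.22 ± 0.07 (adjusted p = 0.00913), and its value under Nutlin-3a was −0.14 ± 0.07 (adjusted p = 0.105), per the authors' deposited tables (DESeq2). The part of BBIP1 reads in the PDCD4 values was not tested.

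The 8 eIF4F genes had log2 fold changes from −0.36 to 0.31 over the 4 comparisons. A gene was called when its adjusted p in the authors' deposited table (DESeq2 Wald test, Benjamini-Hochberg over the table) was under 0.05. With Nutlin-3a in siControl cells, 4 of the 8 were called, 1 higher and 3 lower, where 37.9% of all 23353 genes tested were called (18.3% higher, 19.6% lower). With Nutlin-3a in siRFX7 cells 5 were called, 2 higher and 3 lower, beside 39.1% of all genes (18.7% higher, 20.3% lower). With siRFX7 under DMSO 5 were called, 4 higher and 1 lower, beside 37.4% of all genes (19.9% higher, 17.5% lower). With siRFX7 under Nutlin-3a 5 were called, 3 higher and 2 lower, beside 32.6% of all genes (17.2% higher, 15.4% lower). All of the 8 but EIF4A1, whose row is not a usable measure (below) and was never called, had a base mean above 1000. Among genes whose base mean was 1000 or more, the shares called were 63.5% with Nutlin-3a in siControl cells (22.4% higher, 41.1% lower) and 63.7% in siRFX7 cells (21.7% higher, 42% lower). With siRFX7 they were 55.9% under DMSO (35.6% higher, 20.3% lower) and 52.7% under Nutlin-3a (33.5% higher, 19.2% lower). The calls are thus 4, 5, 5 and 5 of 7 usable genes, and shares of that order were called among well-expressed genes at large. Median log2 fold changes of the 7 were −0.01, −0.06, 0.09 and 0.07, and with EIF4A1 included −0.00, −0.10, 0.10 and 0.01, beside 0.01, 0.01, −0.00 and −0.01 over all genes.

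None of the 8 was called in the difference of the Nutlin-3a responses, where 0.937% of 21339 genes were called (0.173% higher, 0.764% lower in siRFX7). Of the 8, 1 (EIF4EBP2) had an unadjusted p under 0.05 in that normal test. The eIF4F calls depended on the scale of the statistic. With each Wald statistic divided by the robust SD of its table (2.23 to 2.49), the calls that stood were EIF4G1 with Nutlin-3a in siRFX7 cells and EIF4G2 with siRFX7 under DMSO and under Nutlin-3a, at adjusted p of 0.035, 0.0277 and 0.00189. That SD includes the spread of true responses, so it does not show that the deposited errors were too narrow.

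**Figure D2:**
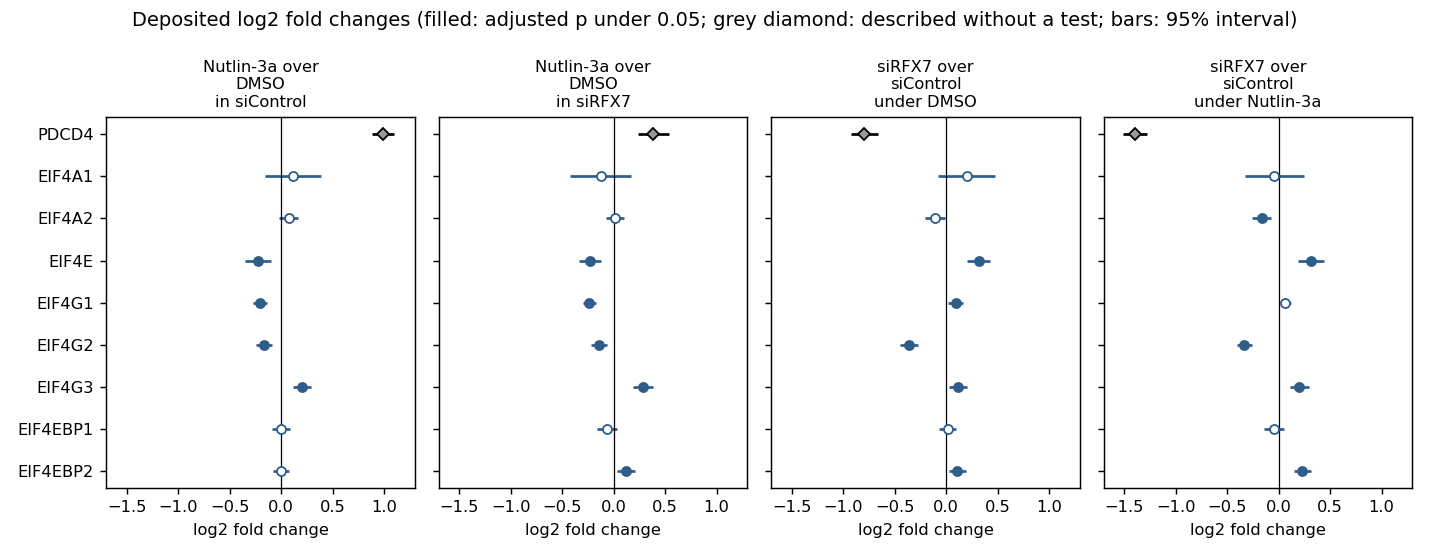
Deposited log2 fold change of each gene in the 4 comparisons (x axis, one panel each) with its 95% interval; filled circles are called at adjusted p under 0.05, open circles are not, and the grey diamond marks PDCD4, which is described without a test. PDCD4 runs from −1.40 to 0.99, and the eIF4F genes stay within −0.36 and 0.31.

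eIF4A is the RNA helicase that unwinds the leader of the mRNA and is the protein that PDCD4 binds. It is made from EIF4A1 or EIF4A2, a closely related pair. EIF4A2 (ENSG00000156976, chr3:186783205-186789900, plus strand) had implied levels of 12296 with DMSO and 12909 with Nutlin-3a in siControl cells, and of 8659 and 8730 in siRFX7 cells, from the authors' deposited tables. The authors' deposited log2 fold changes with Nutlin-3a were 0.07 ± 0.05 and 0.01 ± 0.04, neither called. With siRFX7 it fell under Nutlin-3a, by 0.17 ± 0.05 (adjusted p = 0.00141), and its value under DMSO was −0.11 ± 0.05 (adjusted p = 0.0551), per the authors' deposited tables (DESeq2). The latter passed the threshold, at 0.0416, when only genes whose base mean was 100 or more were tested.

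EIF4A1 (ENSG00000161960, chr17:7572706-7579005, plus strand) was not called in any comparison, but the deposited row is not a usable measure of this gene's level. Its base mean was 105 to 131 in the authors' deposited tables, lower than that of any other member. All 1756 bases of its transcript ENST00000293831 lie in exons of 2 other genes on the same strand in the GENCODE 29 annotation, the readthrough SENP3-EIF4A1 (83.5% of the transcript) and AC016876.2. Reads that fall in exons of more than one gene are commonly left uncounted, and what the authors' counting did with them is not given in the sources used here. SENP3-EIF4A1 itself had base means of 5.88 to 9.41 in the authors' deposited tables, and AC016876.2 was in none of them.

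Processed copies of EIF4A1 elsewhere in the genome carried far more counts than the gene. EIF4A1P10 on chromosome X, 97.1% identical to that transcript over 1216 bases, had a base mean of 5025 to 5977 in the authors' deposited tables. EIF4A1P4 on chromosome 12, 95.4% identical, had 1130 to 1690. Over EIF4A1 and the 6 copies analysed, EIF4A1 held 1.57% to 1.66% of the summed base mean of the authors' deposited tables. The deposited log2 fold changes of EIF4A1 were 0.12 ± 0.14 and −0.13 ± 0.15 with Nutlin-3a (siControl, siRFX7) and 0.20 ± 0.14 and −0.04 ± 0.15 with siRFX7 (DMSO, Nutlin-3a). EIF4A1P10 shared the signs of EIF4A1 in 2 of the 4 and differed from EIF4A1P4 in sign with siRFX7: in the authors' deposited tables (DESeq2) under DMSO the copies were called at 0.21 ± 0.05 (adjusted p = 3.21e-05) and −0.14 ± 0.05 (adjusted p = 0.0113). No statement on the level of EIF4A1 mRNA is made from these values.

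EIF4E, the cap-binding subunit, fell with Nutlin-3a and rose with siRFX7, by like amounts in both arms. The gene (ENSG00000151247) lies at chr4:98871684-98930637 on the minus strand. The authors' deposited tables imply 1258 normalised counts with DMSO and 1073 with Nutlin-3a in siControl cells, and 1188 and 1012 in siRFX7 cells. On the siRNA side they imply 1130 in siControl against 1404 in siRFX7 cells under DMSO, and 908 against 1128 under Nutlin-3a. With Nutlin-3a the deposited log2 fold change was −0.23 ± 0.06 in both siControl (adjusted p = 0.0012, DESeq2) and siRFX7 cells (adjusted p = 0.000141). With siRFX7 the authors' deposited tables give 0.31 ± 0.06 under both DMSO (adjusted p = 1.72e-07, DESeq2) and Nutlin-3a (adjusted p = 7.19e-06). Relative to siControl DMSO the level was 85.3% with Nutlin-3a, 124% with siRFX7 and 106% with both. The difference of the Nutlin-3a responses was −0.00 ± 0.08, with a 95% interval of −0.17 to 0.16.

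Among the scaffolds, each gene had its own pattern. EIF4G1, the main scaffold of eIF4F (ENSG00000114867, chr3:184314495-184335358, plus strand), was implied by the authors' deposited tables at 50183 with DMSO and 43366 with Nutlin-3a in siControl cells, and at 40659 and 34444 in siRFX7 cells. It fell with Nutlin-3a in both arms, with log2 fold changes of −0.21 ± 0.03 (adjusted p = 1.32e-08) and −0.24 ± 0.03 (adjusted p = 2.33e-12) in the authors' deposited tables (DESeq2). With siRFX7 its values there were 0.09 ± 0.04 under DMSO (adjusted p = 0.0364, DESeq2, lost at 0.0808 when fold changes were centred on their median) and 0.07 ± 0.03 under Nutlin-3a (adjusted p = 0.0656).

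EIF4G2, also known as DAP5 or p97, lacks the part of the scaffold that binds eIF4E and serves cap-independent initiation. It lies at chr11:10797050-10809110 on the minus strand (ENSG00000110321). The authors' deposited tables imply 52712 normalised counts with DMSO and 47026 with Nutlin-3a in siControl cells, and 31246 and 28287 in siRFX7 cells. Under DMSO the implied level was 47354 in siControl against 36937 in siRFX7 cells, and under Nutlin-3a 39794 against 31530. It was the member that fell most with siRFX7 after PDCD4, with log2 fold changes of −0.36 ± 0.04 under DMSO (adjusted p = 1.21e-14) and −0.34 ± 0.04 under Nutlin-3a (adjusted p = 4.23e-18) in the authors' deposited tables (DESeq2). With Nutlin-3a it fell by 0.16 ± 0.04 in siControl (adjusted p = 0.000214) and by 0.14 ± 0.04 in siRFX7 cells (adjusted p = 0.0022), per the authors' deposited tables (DESeq2). EIF4G2 therefore had its highest level in siControl DMSO and its lowest, 70.6% of that, with siRFX7 and Nutlin-3a.

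EIF4G3, a close relative of EIF4G1 (ENSG00000075151, chr1:20806292-21176888, minus strand), went the other way. The authors' deposited tables imply 1901 with DMSO and 2189 with Nutlin-3a in siControl cells, and 1567 and 1913 in siRFX7 cells. It rose with Nutlin-3a by 0.20 ± 0.04 in siControl (adjusted p = 1.82e-05) and by 0.29 ± 0.05 in siRFX7 cells (adjusted p = 4.2e-08), per the authors' deposited tables (DESeq2). With siRFX7 it rose by 0.12 ± 0.05 under DMSO (adjusted p = 0.036, lost at 0.0691 after centring) and by 0.20 ± 0.05 under Nutlin-3a (adjusted p = 9.92e-05), per the authors' deposited tables (DESeq2). It was highest, at 132% of siControl DMSO, with siRFX7 and Nutlin-3a, the group in which EIF4G2 was lowest.

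The EIF4E inhibitors differed from each other. EIF4EBP1 (ENSG00000187840, chr8:38030341-38060365, plus strand) was called in no comparison, with log2 fold changes between −0.06 and 0.01 in the authors' deposited tables and errors of 0.04 to 0.05. Its level stayed between 96.6% and 101% of siControl DMSO. EIF4EBP2 (ENSG00000148730, chr10:70404379-70428618, plus strand) was implied by the authors' deposited tables at 4547 with DMSO and 4530 with Nutlin-3a in siControl cells, and at 3723 and 4037 in siRFX7 cells. Those 2 arms were normalised separately. Within the siRNA comparisons EIF4EBP2 stood at 4086 in siControl against 4400 in siRFX7 cells under DMSO, and at 3835 against 4499 under Nutlin-3a. Its log2 fold change with Nutlin-3a was −0.01 ± 0.04 in siControl (adjusted p = 0.943) and 0.12 ± 0.05 in siRFX7 cells (adjusted p = 0.0265), per the authors' deposited tables (DESeq2). It rose with siRFX7 by 0.11 ± 0.04 under DMSO (adjusted p = 0.0294, lost at 0.0622 after centring) and by 0.23 ± 0.04 under Nutlin-3a (adjusted p = 6.8e-07), per the authors' deposited tables (DESeq2). The difference of its Nutlin-3a responses, 0.12 ± 0.06 with a 95% interval of 0.01 to 0.24, was not called, at an adjusted p of 0.741 in the normal test over 21339 genes built on the deposited DESeq2 values.

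For the other eIF4F genes the difference of the Nutlin-3a responses was −0.06 ± 0.07 for EIF4A2, −0.03 ± 0.05 for EIF4G1, 0.02 ± 0.06 for EIF4G2, 0.08 ± 0.07 for EIF4G3 and −0.06 ± 0.07 for EIF4EBP1. The 95% intervals of these 5 and of EIF4E and EIF4EBP2 all ended inside −0.20 and 0.25, and that of EIF4A1 ran from −0.65 to 0.16. PDCD4 was chosen by its own fold changes, so these intervals are not set against its difference.

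**Figure D3:**
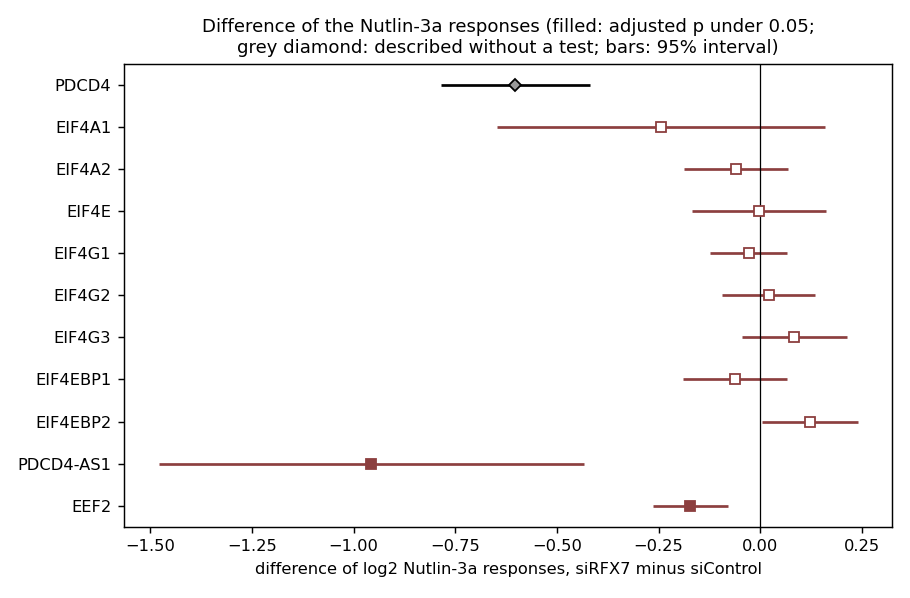
Difference of the log2 Nutlin-3a responses, siRFX7 minus siControl, with its 95% interval, for the 9 genes, PDCD4-AS1 and the elongation factor EEF2; filled squares are called at adjusted p under 0.05 and the grey diamond is PDCD4, described without a test. PDCD4 (−0.60) and PDCD4-AS1 (−0.96) lie far below 0, and the eIF4F intervals include 0 except that of EIF4EBP2.

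Levels were compared between genes per kilobase of the longest transcript of each gene in GENCODE 29, coding or not. That transcript has 5327 bases for EIF4A2 and 6769 for EIF4G2, where their longest basic coding transcripts have 1919 and 4001. In siControl cells with DMSO, the authors' deposited table gave 8855 normalised counts per kilobase for EIF4G1, 7787 for EIF4G2, 3410 for EIF4EBP1, 2308 for EIF4A2, 627 for EIF4EBP2 and 307 for EIF4G3. PDCD4 followed at 227, then EIF4E at 109. With Nutlin-3a PDCD4 reached 449 and passed EIF4G3, at 353. The order rests on the lengths: per kilobase of the median transcript EIF4G2 (89191) stood above EIF4G1 (23965), and EIF4E (1704) above PDCD4 (1030). On that length EIF4A2 (16752) also stood above EIF4EBP1 (4056), and EIF4EBP2 (627) fell below PDCD4. With no single library, neighbours in this order could not be set against their spread.

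The 3′ UTRs were searched for GTATCTA, a heptamer found in an earlier scan of these same siRFX7 fold changes, whose carriers ran lower with siRFX7. Because it was found in these data it supports nothing here, and it is shown because some members carry it and others do not. Of 11283 genes that had a 3′ UTR and a base mean of 100 or more in the siRFX7 comparison under DMSO, 8.76% carried it. In the authors' deposited table the carriers had a median log2 fold change of −0.14 and 48.2% of them were called lower, against 0.03 and 19.9% of the others. Under Nutlin-3a the medians were −0.10 and 0.02 over 11345 genes. The word was present in RFX7 itself and in 3 members, with the heptamer in capitals and the flanks given 5′ to 3′ on the transcript.
RFX7, chr15:56093300-56093328, minus strand: tgtagcacactGTATCTAaagacatatgt
EIF4G2, chr11:10797066-10797094, minus strand: tttatatacttGTATCTAtcaataaacat
EIF4E, chr4:98878972-98879000, minus strand: actgaagtagtGTATCTAttataaattga
EIF4EBP2, chr10:70428081-70428109, plus strand: acctggtgcctGTATCTAcattgctgagt
EIF4G2 carried the word in 3 of its 4 basic transcripts with a 3′ UTR. EIF4E carried it in 1 of 4, the one with a UTR of 9344 bases, and EIF4EBP2 in its single transcript, whose UTR has 6871 bases. The 3 carriers did not move alike: EIF4G2 fell with siRFX7, while EIF4E and EIF4EBP2 rose. PDCD4, with 2 such transcripts and a longest UTR of 1918 bases, did not hold the word, and neither did EIF4A1, EIF4A2, EIF4G1, EIF4G3 or EIF4EBP1. A second word from that scan, GACGTA, was in the 3′ UTRs of none of the 9 genes.

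The genes whose 4 deposited log2 fold changes lay closest to those of PDCD4 were found by the root mean square distance over the 4 comparisons, among 12177 genes whose base mean was 100 or more in every table. BIRC3, an inhibitor of apoptosis, was closest, at a distance of 0.148 on the log2 scale. It was followed by CCNG2 (0.191), a cyclin that rises as cells stop dividing, ABAT (0.201), which breaks down the transmitter GABA, KLHL24 (0.219), a ubiquitin ligase adaptor, and NAT16 (0.281), which has an acetyltransferase domain. The 5 were chosen for this likeness, so their values are a description. In the authors' deposited tables their Nutlin-3a log2 fold changes ran from 0.71 (NAT16) to 1.27 (CCNG2) in siControl cells and from 0.33 (CCNG2) to 0.68 (ABAT) in siRFX7 cells. The siRFX7 values ran from −0.95 (NAT16) to −0.60 (CCNG2) under DMSO and from −1.54 (CCNG2) to −1.01 (NAT16) under Nutlin-3a, per the authors' deposited tables. The smaller Nutlin-3a response seen for PDCD4 was also present in BIRC3 (difference −0.33 ± 0.09), CCNG2 (−0.94 ± 0.12), ABAT (−0.55 ± 0.10) and KLHL24 (−0.54 ± 0.14), while that of NAT16 was −0.06 ± 0.16. Of the eIF4F genes the closest to PDCD4 was EIF4G2, at rank 2226 of 12177, and the farthest EIF4E, at rank 11002.

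**Figure D4:**
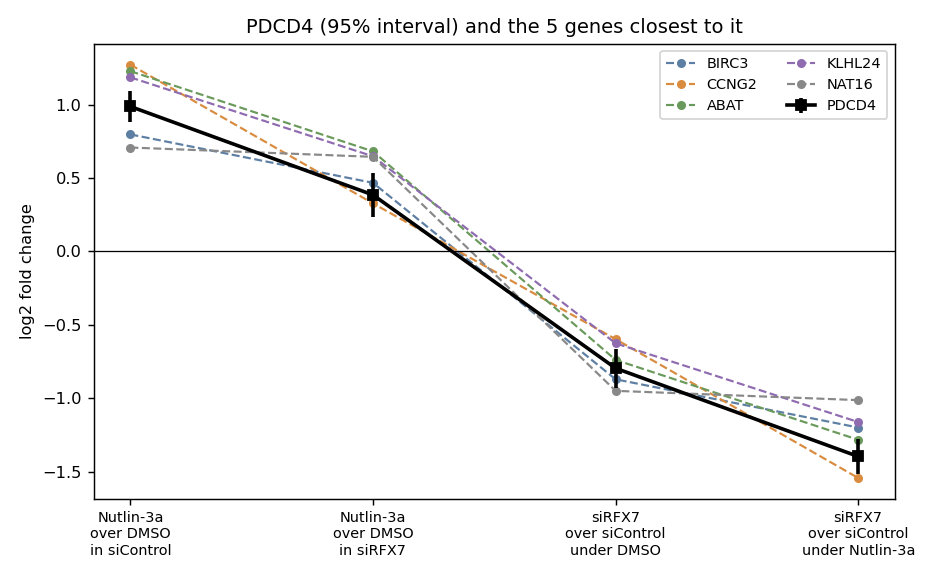
Deposited log2 fold changes of PDCD4 (black squares with 95% interval) and of the 5 genes closest to it (coloured points without error) in the 4 comparisons on the x axis; the lines only join the values of a gene. All 6 genes are above 0 with Nutlin-3a and below 0 with siRFX7.

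Of the genes that control the PDCD4 protein, those called with siRFX7 were higher. Of 9 listed (S6 kinases, AKT1, MTOR, RPTOR and the parts of the BTRC and FBXW11 ligases), 4 were called with siRFX7 under DMSO and 6 under Nutlin-3a, all higher, with medians of 0.10 and 0.14 in the authors' deposited tables. All 9 had base means above 1000, and of genes at that level 55.9% and 52.7% were called in these comparisons (35.6% and 33.5% higher). In either direction, 4 of 9 lay below and 6 of 9 above that share. AKT1, at −0.06 ± 0.04 in both, and FBXW11, at 0.01 ± 0.05 in both, were not called in the authors' deposited tables, and RPS6KB2 was not called either. RPTOR, the subunit through which mTORC1 binds its substrates, rose most, by 0.79 ± 0.05 (adjusted p = 4.13e-64) under DMSO and by 0.71 ± 0.04 (adjusted p = 3.93e-67) under Nutlin-3a, per the authors' deposited tables (DESeq2). MTOR, the kinase itself, rose by 0.13 ± 0.05 and 0.15 ± 0.04, per the authors' deposited tables. BTRC and SKP1, parts of the ligase that marks PDCD4, were named after their values were seen. BTRC rose by 0.41 ± 0.05 and 0.34 ± 0.05, and SKP1 by 0.26 ± 0.06 and 0.29 ± 0.04, per the authors' deposited tables. Under Nutlin-3a RPS6KB1 and CUL1 were also called higher, at 0.14 ± 0.05 and 0.13 ± 0.05 in the authors' deposited table.

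With Nutlin-3a the regulators called were lower, and their counts lay below the 63.5% and 63.7% called among genes whose base mean was 1000 or more. In siControl cells they were RPS6KB1 (−0.32 ± 0.04) and CUL1 (−0.25 ± 0.05), 2 of 9 in the authors' deposited table. In siRFX7 cells they were 3 of 9: RPS6KB1 (−0.24 ± 0.04), CUL1 (−0.19 ± 0.05) and RPTOR (−0.11 ± 0.04, lost after centring at 0.111), per the authors' deposited table. None of the 9 was called in the difference of the responses. These are mRNA values, and PDCD4 protein was not measured.

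Partners of the cap complex moved in both directions. Of 14 listed genes 13 were in the tables (EIF4EBP3 was in none), and 7 were called with Nutlin-3a in siControl cells (2 higher, 5 lower), 6 in siRFX7 cells (1 higher, 5 lower), and 10 with siRFX7 under DMSO (4 higher, 6 lower) and 10 under Nutlin-3a (5 higher, 5 lower), per the authors' deposited tables. Over all genes 37.9%, 39.1%, 37.4% and 32.6% were called, and among those with a base mean of 1000 or more 63.5%, 63.7%, 55.9% and 52.7%, in the same order. EIF4E3, a cap-binding relative of EIF4E, rose most with Nutlin-3a, by 0.46 ± 0.09 in siControl and by 0.65 ± 0.09 in siRFX7 cells, per the authors' deposited tables. EIF4A3, the helicase of the exon junction complex, fell most, by 0.37 ± 0.04 and 0.43 ± 0.04 in the authors' deposited tables. EIF4B, which stimulates the eIF4A helicase, fell most with siRFX7 under Nutlin-3a, by 0.33 ± 0.04, where EIF4E3 was highest at 0.35 ± 0.08, per the authors' deposited table. Under DMSO the ends were EIF4ENIF1, which carries eIF4E into the nucleus, at 0.24 ± 0.05, and PAIP2B, an inhibitor of poly(A)-binding protein, at −0.31 ± 0.09, per the authors' deposited table. None of the 13 was called in the difference of the responses.

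Of the remaining initiation factors called with Nutlin-3a, most were lower, as were most well-expressed genes called. Of 29 genes, 16 were called in siControl cells (3 higher, 13 lower) and 13 in siRFX7 cells, all lower, with medians of −0.05 in both authors' deposited tables. Among genes whose base mean was 1000 or more, 63.5% and 63.7% were called, 41.1% and 42% lower. Over all genes the shares called were 37.9% and 39.1% with Nutlin-3a, and 37.4% and 32.6% with siRFX7 (DMSO, then Nutlin-3a). EIF3B, a core subunit of eIF3, fell by 0.42 ± 0.04 in siRFX7 cells and was the lowest there, and EIF1AX, needed for start codon scanning, was the lowest in siControl cells at −0.37 ± 0.08, per the authors' deposited tables. The highest call in siControl cells was EIF3H at 0.14 ± 0.03 in the authors' deposited table. With siRFX7, 17 were called under DMSO (9 higher, 8 lower) and 8 under Nutlin-3a (4 higher, 4 lower), with medians of 0.02 in both authors' deposited tables, beside 55.9% and 52.7% of genes whose base mean was 1000 or more. The eIF3 subunits EIF3I and EIF3K stood at the ends under DMSO, at 0.33 ± 0.05 and −0.33 ± 0.04, and under Nutlin-3a the ends were EIF5B, which joins the ribosomal subunits, at 0.31 ± 0.05 and EIF3K at −0.29 ± 0.04, per the authors' deposited tables. None of the 29 was called in the difference of the responses.

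**Figure D5:**
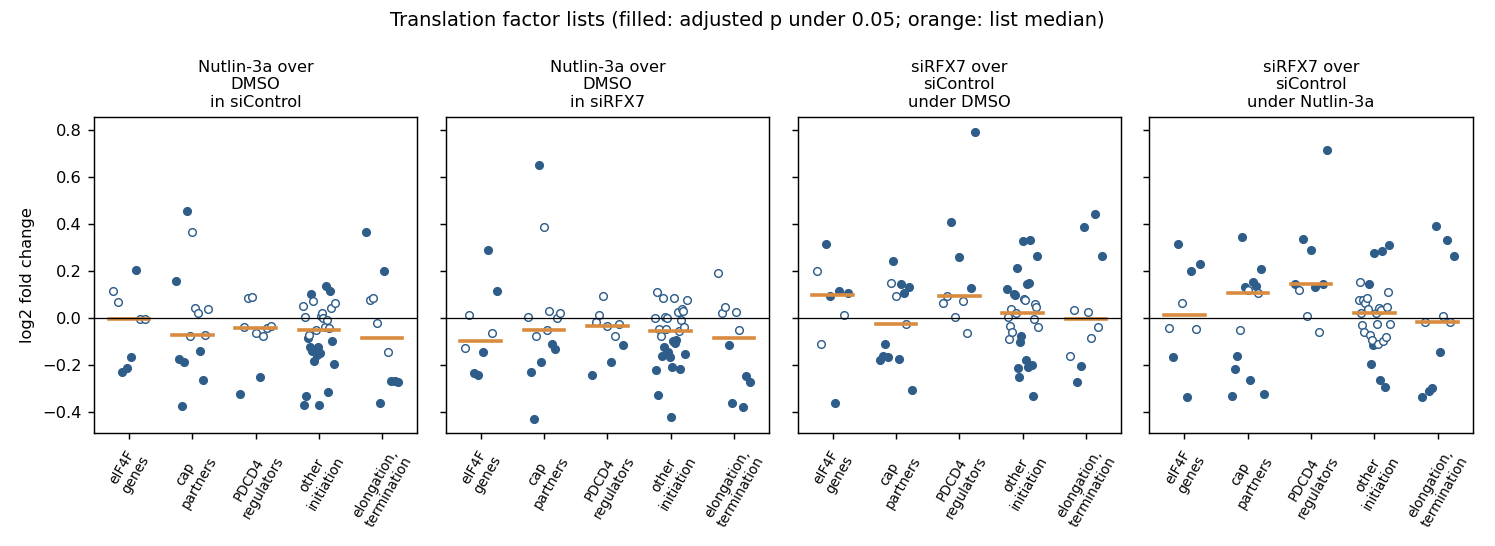
Deposited log2 fold changes (y axis) of the 8 eIF4F genes and of 4 lists of translation genes, one panel per comparison; each circle is a gene, filled where adjusted p is under 0.05, and the orange line is the list's median. The regulators of PDCD4 lie mostly above 0 with siRFX7, with RPTOR at 0.79 under DMSO, and the other lists spread to both sides.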

How the data were processed

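The 16 poly(A) libraries were made with a stranded Illumina mRNA kit, per the labels' protocols. The submitters' processing notes name Trimmomatic 0.39, cutadapt 2.10, SAMtools 1.10, featureCounts 1.6.5, DESeq2 1.20.0 and the build hg38. The aligner, the annotation and the strand setting are not given in the sources used here. Per the file headers, 4 tables of comparisons between 2 groups were deposited. The base mean is a signal, the mean normalised count over the 8 libraries of a comparison, as deposited. The log2 fold changes and their errors were used as the authors deposited them. Each deposited Wald statistic, a score, equalled the fold change over its error to within 1.85e-13. The deposited p-value and its Benjamini-Hochberg adjustment were used for calls, at an adjusted p under 0.05.

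The direction of each table was set from RFX7, CDKN1A and MDM2. Over 19344 genes the difference of the Nutlin-3a tables matched that of the siRFX7 tables (r = 0.999936 across genes, which are not independent). Both are the same contrast of the same 4 groups, so the match shows only that the directions were set alike. Group means were solved from the base mean and the fold change. The difference of Nutlin-3a responses used the root of the summed squared errors of both tables, which share no library, with a two-sided normal test and Benjamini-Hochberg adjustment over 21339 genes. The script was tested on simulated data with noise drawn from the deposited errors, which cannot show whether those errors are adequate. Named were all 9 members, per list the called genes with the highest and the lowest fold change, and the 5 genes nearest to PDCD4; others are marked in the text. The members and lists were chosen with earlier results of these data known. Exons and UTRs came from GENCODE 29 on GRCh38, in which 23362 of 23396 gene identifiers were found, and promoters from RefSeq on GRCh38.p14. Protein sequences were not analysed here. Python 3.11.15, pandas 2.3.3 and scipy 1.17.1 were used. Alternatives changed the p threshold, a size limit of 0.25, a base mean minimum of 100, centring, the scale of the statistic and the source table. Counting depth per library was not used, as the files hold no single library.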

Additional observations from a re-analysis of the deposited data

Results flagged for a closer look

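The Nutlin-3a responses of 8 genes named here differed between siRFX7 and siControl cells. PDCD4 differed by −0.60 on the log2 scale, as a description, since it was chosen for this pattern. PDCD4-AS1, which was named after its values were seen, differed by −0.96. Its adjusted p was 0.0375 in the normal test built on the deposited DESeq2 values, a call lost at a threshold of 0.01. The adjusted p of PDCD4-AS1 ran from 0.0176 to 0.0375 over the alternatives that gave one, and its base mean was below 100 in 3 of the 4 tables. EEF2, the factor that moves the ribosome along the mRNA, differed by −0.17 ± 0.05, at an adjusted p of 0.0327 in the same test, with a range of 0.015 to 0.0347 over the alternatives, and was not called at an adjusted p under 0.01 or with a size limit of 0.25. In the authors' deposited tables EEF2 had log2 fold changes of 0.20 ± 0.03 with Nutlin-3a in siControl cells (adjusted p = 1.97e-08, DESeq2) and 0.03 ± 0.03 in siRFX7 cells (adjusted p = 0.561). The p53 target CDKN1A differed by −0.26 ± 0.05, at an adjusted p of 0.000305 in the same normal test on deposited DESeq2 values. Unlike PDCD4, CDKN1A was higher with siRFX7, with deposited log2 fold changes of 0.60 ± 0.04 under DMSO and 0.33 ± 0.04 under Nutlin-3a. BIRC3 (−0.33), CCNG2 (−0.94), ABAT (−0.55) and KLHL24 (−0.54) were chosen for being like PDCD4, so their differences are a description.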

How the results depend on the processing

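Of the 8 eIF4F genes, 4 and 5 were called with Nutlin-3a in siControl and siRFX7 cells, and 5 and 5 for the siRNA comparisons (DMSO, then Nutlin-3a). A size limit of 0.25 left 0, 1, 2 and 2. Statistics divided by their robust SD left 0, 1, 1 and 1, where counts over all genes fell from 8853, 8355, 7288 and 6625 to 2303, 2048, 955 and 1074. For siRFX7 under DMSO, an adjusted p under 0.01 left 2. Centring on the median gave 3 there: EIF4G1, EIF4G3 and EIF4EBP2 lost their call and EIF4A2 gained one. The size limit left 4501 and 4020 genes in all for siRFX7 (DMSO, then Nutlin-3a). In the difference of responses none of the 8 was called under any of 6 alternatives, and p under 0.01 left 125 of 200 genes in all. Of those 6, the stricter p and the size limit could only remove calls, and the siRFX7 source gave the same contrast. Centring on the median turned the uncalled values of EIF4EBP1 and EIF4EBP2 with Nutlin-3a in siControl cells to 0.0253 and 0.0222. Of 442 values of single genes under alternatives, PDCD4 and the 5 genes nearest to it left out, 355 kept their call or its absence, 81 lost it, 4 gained it and 2 changed sign. Of the 5 genes nearest to PDCD4, 4 remained with distances scaled by errors and 1 (BIRC3) when the base mean had to reach 1000, which leaves 5763 candidates. No paired analysis was possible because the deposited tables hold no single library, and no replicate could be left out for the same reason.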

Other observations

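Elongation and termination factors were measured beside the initiation factors. Of 11 listed genes 10 were in the tables (EEF1G was in none). With Nutlin-3a 6 were called in siControl cells (2 higher, 4 lower) and 5 in siRFX7 cells, all lower, and with siRFX7 5 were called under DMSO (3 higher, 2 lower) and 7 under Nutlin-3a (3 higher, 4 lower), per the authors' deposited tables. Over all genes 37.9%, 39.1%, 37.4% and 32.6% were called in the same order, and of genes whose base mean was 1000 or more 63.5%, 63.7%, 55.9% and 52.7%. EEF1A1, which brings aminoacyl-tRNA to the ribosome, rose with Nutlin-3a in siControl cells by 0.37 ± 0.05 and fell with siRFX7 under Nutlin-3a by 0.33 ± 0.11, per the authors' deposited tables. EIF5A, which helps the ribosome past poor substrates such as proline runs, fell with Nutlin-3a by 0.27 ± 0.05 in siControl and by 0.38 ± 0.04 in siRFX7 cells, and rose with siRFX7 by 0.44 ± 0.03 under DMSO and by 0.33 ± 0.05 under Nutlin-3a, per the authors' deposited tables. EEF1E1, a scaffold part of the tRNA synthetase complex, fell with Nutlin-3a by 0.36 ± 0.10 in both arms and rose with siRFX7 by 0.39 ± 0.09 and 0.39 ± 0.11, per the authors' deposited tables. Of the 10, EEF2 was called in the difference of the responses.

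Of the 5 genes nearest to PDCD4, 4 hold the heptamer GTATCTA in at least 1 basic 3′ UTR: BIRC3 in 3 of 3 transcripts, CCNG2 in 1 of 4, ABAT in 2 of 5 and KLHL24 in 1 of 3. NAT16 and PDCD4 do not. The genes were chosen for low siRFX7 values and the word for the low siRFX7 values of its carriers, so this count is a description.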
